A study of Drosophila melanogaster with 14 samples.

Results

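The cytosolic ribosomal protein genes were taken by name, as every gene of the processed table called RpL or RpS followed by a number and any letters. There were 84 such genes among 13931, of which 47 encode proteins of the large ribosomal subunit and 37 of the small subunit. Their levels were read in nuclear RNA of Kenyon cells, the intrinsic neurons of the mushroom body, from adult Drosophila melanogaster. TAPIN-seq, an affinity purification of tagged nuclei followed by RNA sequencing, gave 14 libraries, with 2 biological replicates for each of 7 subtypes. Each library was made from 400 pooled heads of flies of both sexes that were 2 to 5 days old. A p-value between subtypes therefore measures differences against the spread between such pools. In tests between classes, which group these subtypes, the spread also takes in differences between the subtypes of a class. Those tests treat the 2 replicates of a subtype as independent libraries of its class.

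Every group carried the nuclear tag UNC84-2XGFP, driven by UAS from an attP40 insertion in the MJ2 background, an isogenic line descended from Canton-S, and only the split-GAL4 driver differed. In the γ class, γd nuclei came from the MB607B driver and γm+d nuclei from MB131B. In the α′/β′ class, MB370B marked the α′/β′ap+m nuclei and MB418B the α′/β′m nuclei. In the α/β class, MB371B was used for α/βp, MB185B for α/βs and MB594B for α/βc. The classes therefore hold 4, 4 and 6 libraries. A driver can also mark a few cells outside the mushroom body, and in pooled nuclei fewer nuclei of a type and less RNA per nucleus cannot be told apart.

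Levels are given as TPM, a transcript's share of its library after correction for transcript length, which keeps no record of read depth. A value of 0 is therefore reported as listed at 0, with no detection limit. The labelled cell type was checked against its markers. The neuronal gene elav stood at 1030 TPM or more and the Kenyon cell gene ey at 631 TPM or more in every library, while the 3 hemocyte markers summed to at most 3.77 TPM. The 5 glial markers summed to 5.12 to 154 TPM, with repo at no more than 2.18 TPM but alrm at up to 79.99, Eaat1 at up to 75.6 and moody at up to 50.6 TPM. Markers of other head cells were also read: ninaE, the rhodopsin of the outer photoreceptors, stood at 328 to 3569 TPM and the yolk protein gene Yp1, made in the fat body, at 298 to 3888 TPM. The share of the 8646 tested genes (at least 10 TPM in at least 1 library) that was listed at 0 was 38.8% in γd replicate 1, 21.03% in γd replicate 2 and 30.5% in α/βp replicate 1, against 2.85% to 11.9% in the other 11 libraries. These 3 libraries stand apart, and results that rest on them are given with and without the γd and α/βp libraries.

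Ribosomal proteins assemble with ribosomal RNA into the small subunit, which decodes the mRNA, and the large subunit, which joins amino acids. The proteins are needed in nearly equal amounts, and their genes are mostly scattered through the genome and expressed in every growing cell. Loss of 1 copy of many of them gives flies the Minute phenotype of slow growth and thin bristles. In nuclei, the RNA read is newly made and on its way out, whereas most ribosomal protein mRNA of a neuron lies in the cytoplasm.

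Of the 84 genes, 79 reached 10 TPM in at least 1 library and entered the tests, and 5 never did. The mean over the 14 libraries was 100 TPM or more for 11 genes, between 10 and 100 TPM for 64 and under 10 TPM for 9, and the median of the 84 means was 35.9 TPM. In the 10 libraries outside γd and α/βp, 71 genes were above 0 in every library and 36 were at 10 TPM or more in every library. Over all 14 libraries, 30 were above 0 throughout. The family therefore covered a range of levels, from a few genes above 200 TPM to a few that were listed at 0 almost everywhere.

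**Figure D1:**
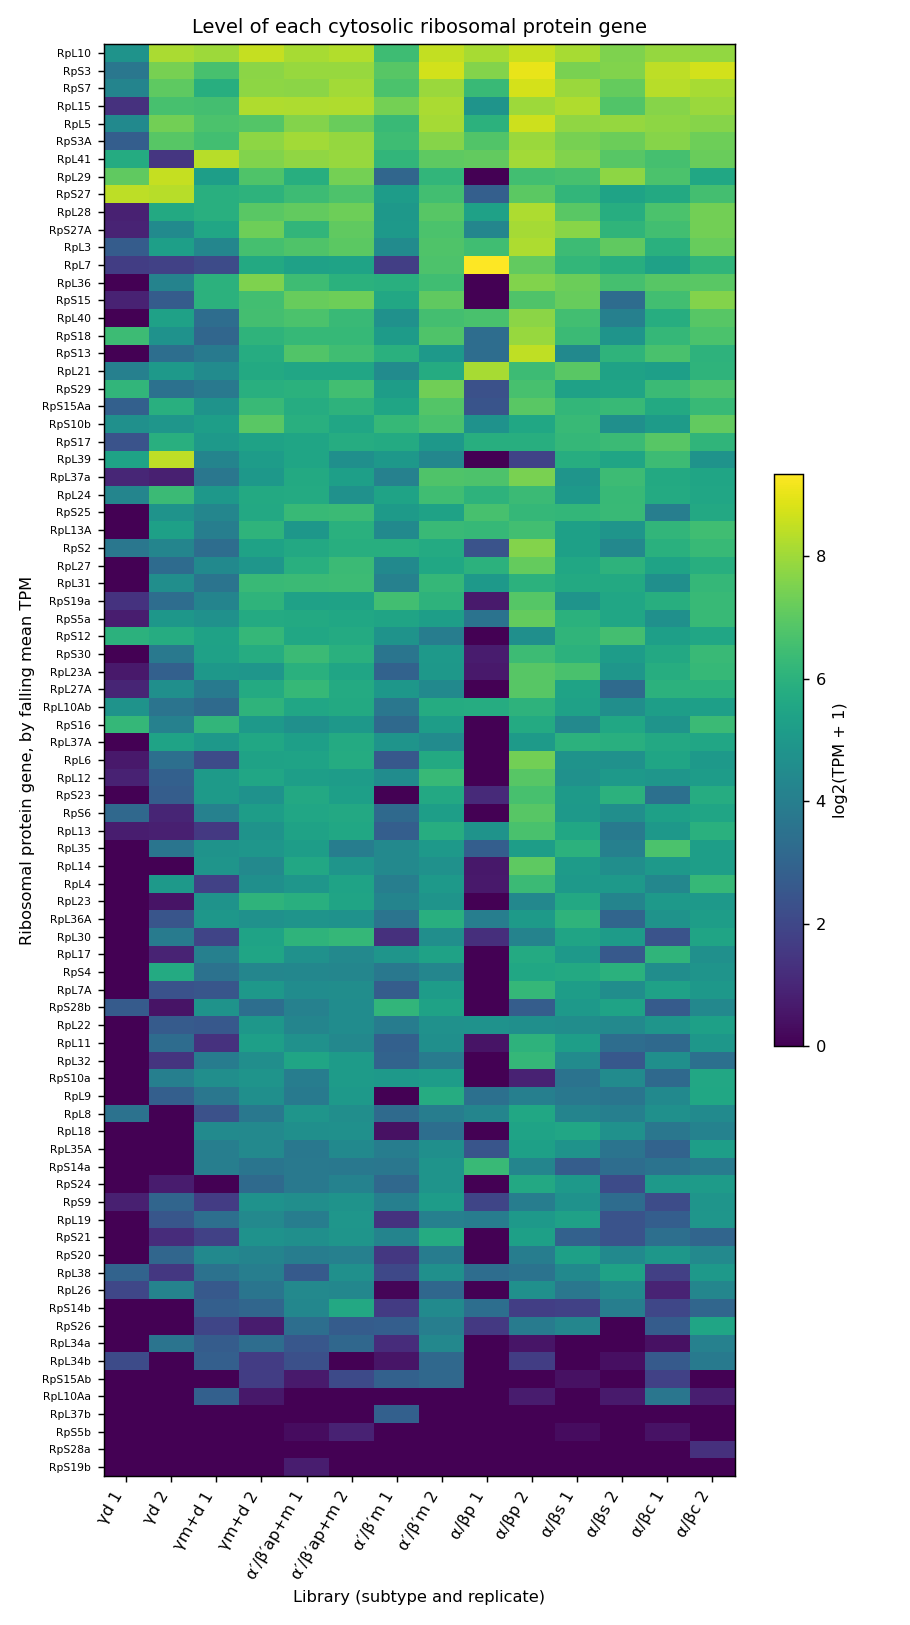
Level of 81 of the 84 genes, as log2(TPM + 1) by colour, with 1 row per gene ordered by falling mean TPM and 1 column per library (subtype and replicate). The columns of γd replicate 1 and α/βp replicate 1 hold most of the dark cells, with 41 and 31 of the 84 genes listed at 0, and the bottom rows are dark across nearly all 14 columns.

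RpL10, a large subunit protein that joins late in assembly, had the highest mean, 253 ± 99.3 TPM (SD, n = 14), which lies above 94.5% of all genes in the table. It stood at 26.7 and 284 TPM in γd, 254 and 364 TPM in γm+d, 276 and 306 TPM in α′/β′ap+m, 87.1 and 363 TPM in α′/β′m, 275 and 373 TPM in α/βp, 276 and 185 TPM in α/βs and 236 and 229.6 TPM in α/βc. Apart from γd replicate 1 and α′/β′m replicate 1 its levels stayed within a narrow band, and the 3 classes overlapped. RpL10 lies at chr3L:23093190-23095471 on the minus strand (BDGP6, Ensembl annotation), and 56.4% of its TPM fell on 1 of its 3 transcripts, RpL10-RC. In α/βp replicate 1, RpL10-RC was listed at 0 and all 275 TPM were assigned to RpL10-RE, so the split between isoforms moved while the gene's level stayed near that of other libraries.

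RpS3, which lines the mRNA entry channel of the small subunit, followed at 239 ± 140.2 TPM. Its lowest level was 12.1 TPM, in γd replicate 1, and its highest 523 TPM, in α/βp replicate 2. Other members with high means were RpS7 at 196 ± 114 TPM, RpL15 at 191 ± 107 TPM and RpL5 at 173 ± 96.9 TPM. RpL15 ranged from 1.53 TPM in γd replicate 1 to 301 TPM in γm+d replicate 2, and it has 8 transcripts in the table, more than any other member.

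RpL5 and RpL11 bind the 5S ribosomal RNA together before it enters the large subunit. Their means were 173 TPM and 19.5 ± 18.4 TPM, and RpL5 was the higher in all 14 libraries. RpL11 was listed at 0 in γd replicate 1, at 0.42 TPM in α/βp replicate 1, and at 64.4 TPM in α/βp replicate 2. RpS6, the small subunit protein that S6 kinase phosphorylates, stood at 32.8 ± 30.3 TPM and was highest, at 120.3 TPM, in α/βp replicate 2. RpL22, which has a protein tail found in insects, stood at 20.1 ± 10.7 TPM, and in the annotation it shares 377 exonic bases with the noncoding gene lncRNA:CR42491 on the same strand, so its reads may be divided between the 2 genes.

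RpS27A and RpL40 are made as fusions to ubiquitin and are thus also sources of free ubiquitin. RpS27A stood at 98.4 ± 78.5 TPM and RpL40 at 74.3 ± 56.2 TPM, and both were highest in α/βp replicate 2, at 270.2 and 213 TPM. Both were lowest in γd replicate 1, at 0.93 TPM for RpS27A and 0 for RpL40. The annotated transcripts of RpS27A share 35 exonic bases with Ip259 on the same strand. RpL41 and RpL39 encode the smallest proteins of the large subunit. RpL41 stood at 156 ± 88.3 TPM and RpL39 at 54.8 ± 84.9 TPM, and the transcript of RpL39, at 288 bases, was the shortest leading transcript among the 83 members with a length.

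At the low end stood copies of genes whose partner was well expressed. RpS19b, RpS28a and RpL37b were listed at 0 in 13 of 14 libraries, RpS5b in 10, RpL10Aa in 8 and RpS15Ab in 7. RpS19b had a mean of 0.0471 TPM, with its only value, 0.66 TPM, in α′/β′ap+m replicate 1. RpS28a was above 0 only in α/βc replicate 2, at 1.45 TPM, and RpL37b only in α′/β′m replicate 1, at 6.21 TPM. RpS5b, known in the fly for a role in the ovary, reached at most 0.87 TPM. RpL10Aa reached 6.23 TPM in γm+d replicate 1 and 11.9 TPM in α/βc replicate 1, and no more than 0.74 TPM elsewhere.

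There were 9 pairs of members whose names differ only in a last lower-case a or b, and they are taken as paired copies of 1 protein gene. RpL37A, with a capital letter, is another gene on chromosome arm 2L and is not a copy of RpL37a, which the annotation calls RpL37-1. In 6 of them the copy with the higher mean lay above its partner in all 14 libraries: RpL10Ab, RpL37a, RpS10b, RpS15Aa, RpS19a and RpS5a. RpS28b lay above RpS28a in 13 libraries and both were listed at 0 in the other. The minor copy gave 0.101% of the pair's summed mean for RpS19b, 0.268% for RpS5b, 0.485% for RpS28a, 0.824% for RpL37b, 2.67% for RpS15Ab, 3.72% for RpL10Aa and 24.3% for RpS10a. RpS10a was thus the only minor copy of these 7 with a share above 4%, with a mean of 19.3 TPM against 60.3 TPM for RpS10b.

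**Figure D2:**
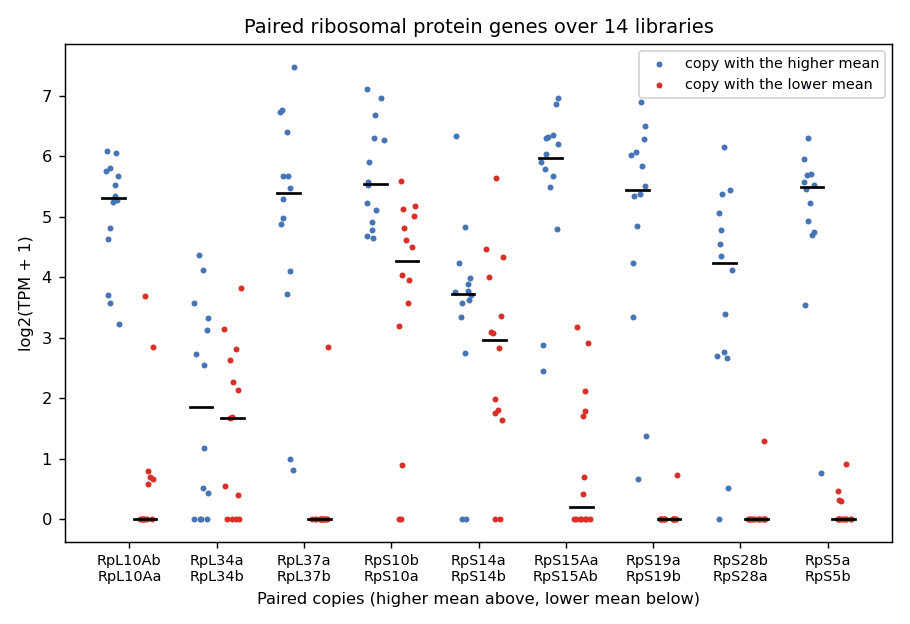
Levels of the 9 pairs of copies, as log2(TPM + 1) on the vertical axis, with 1 point per library and a bar at the median of 14, blue for the copy with the higher mean and red for the other. The red medians lie at 0 for RpL10Aa, RpL37b, RpS19b, RpS28a and RpS5b, whereas the blue and red points mix for the RpL34 and RpS14 pairs.

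The remaining pairs did not have a steady major copy. RpL34a, at 5.46 ± 6.57 TPM, and RpL34b, at 3.20 ± 3.86 TPM, lie far apart on chromosome arm 3R, and RpL34a was the higher in 7 libraries and RpL34b in 5. RpS14a and RpS14b are neighbours on the X chromosome, at chrX:7933742-7934677 and chrX:7934898-7935792 of BDGP6, and encode the same protein. RpS14a had a mean of 16.3 TPM and was the higher in 9 libraries, and RpS14b had a mean of 10.3 TPM and was the higher in 3. Reads of such near-identical copies can be divided between them by the abundance estimate, so each copy's own level is uncertain.

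The annotation places 16 members on chromosome arm 2L, 18 on 2R, 12 on 3L, 22 on 3R, 14 on X and 1, RpS3A, on chromosome 4, while RpS12 was not matched. Introns of 27 members hold 72 small nucleolar RNA genes, the guides of ribosomal RNA modification, of which RpS5a alone holds 14. Among members with a mean of 10 TPM or more, the median was 38.0 TPM for the 27 hosts and 46.8 TPM for the 47 others. The leading transcripts were 288 to 1400 bases long, and their length and the mean TPM had a rank correlation of -0.035 across 83 genes, which share the libraries and are not independent. Exonic bases on the same strand as another gene were annotated for 4 members, RpL22, RpL23A, RpS27A and RpS6.

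The sum over the 84 genes described how much of each library they made up. It was 1353 and 3108 TPM for γd, 2557 and 5042 TPM in γm+d, 5086 and 5384 TPM in α′/β′ap+m, 2358 and 5692 TPM in α′/β′m, 3206 and 8700.2 TPM in α/βp, 5275 and 3931 TPM in α/βs and 4779 and 5900 TPM in α/βc. These sums are 0.135% to 0.87% of a library. By class the sum was 3015 ± 1538 TPM in γ (SD, n = 4), 4630 ± 1535 TPM in α′/β′ (n = 4) and 5299 ± 1921 TPM in α/β (n = 6). The 3 ranges overlapped, and the order of the 7 subtypes by mean, from γd at 2230.2 TPM to α/βp at 5953 TPM, put α/βp highest with 1 replicate among the low libraries. Without γd replicate 1 the γ mean was 3569 TPM, and without α/βp replicate 2 the α/β mean was 4618 TPM. Median-ratio scaling divides each library by a factor, the median over 4448 genes of its level relative to the gene's geometric mean over libraries. With it the class means were 3324 TPM in γ, 3635 TPM in α′/β′ and 4646 TPM in α/β, so γ and α′/β′ lay much closer together.

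**Figure D3:**
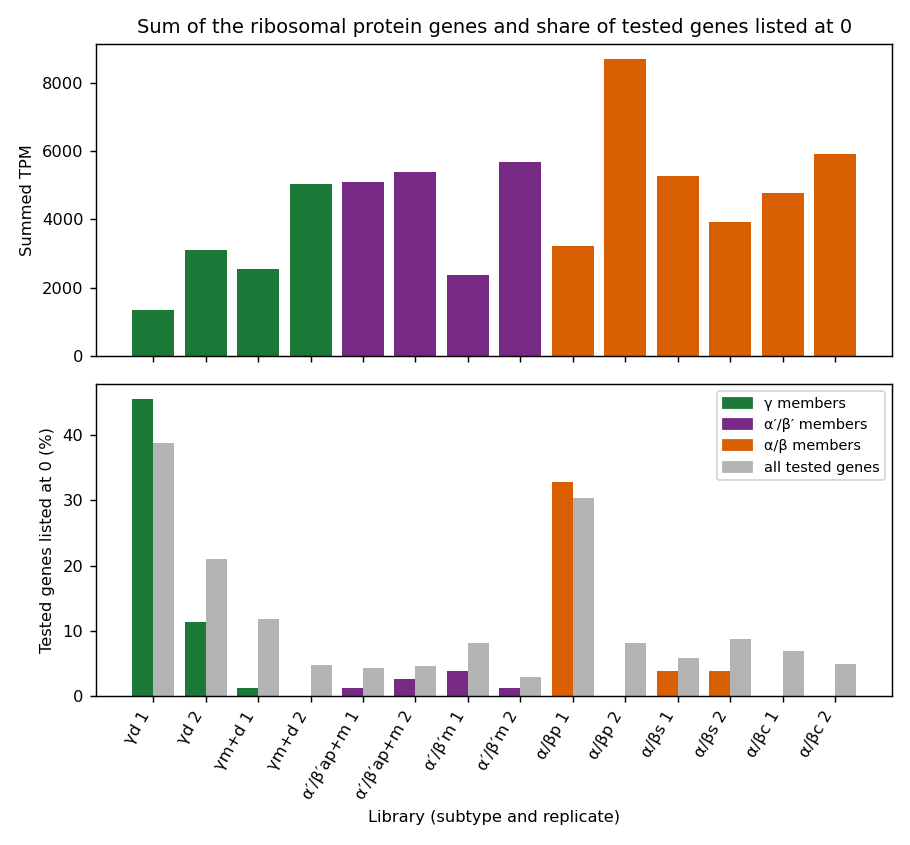
Summed TPM of the 84 genes (upper axis) and the percentage of tested genes listed at 0 (lower axis) for each of the 14 libraries; in the lower plot, bars coloured by class are the 79 tested members and grey bars all 8646 tested genes. The sum runs from 1353 TPM in γd replicate 1 to 8700.2 TPM in α/βp replicate 2, and the members' share at 0 is highest in γd replicate 1 (45.6%) and α/βp replicate 1 (32.9%).

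Marker genes of other cells differed between the libraries too, and did not follow the ribosomal protein sums throughout. α/βp replicate 2, the library with the highest ribosomal protein sum, also had the highest sum of the 6 photoreceptor markers, 4000.3 TPM, and of the 5 fat body markers, 5904 TPM. Over the libraries of a class, the photoreceptor sum ranged over 456 to 1049 TPM in γ, 1039 to 2154 TPM in α′/β′ and 1343 to 4000.3 TPM in α/β. The fat body sum ranged over 377 to 1280 TPM in γ, 542 to 1905 TPM in α′/β′ and 1545 to 5904 TPM in α/β. By contrast, γd replicate 1, with the lowest ribosomal protein sum, had the highest sum of the 5 muscle markers, 567.65 TPM, and more photoreceptor and fat body RNA (952 and 1232 TPM) than its partner (868 and 884 TPM). The muscle sum ranged over 76.4 to 567.65 TPM in γ, 45.7 to 129 TPM in α′/β′ and 136 to 463 TPM in α/β. The glial sum ranged over 5.12 to 65.8 TPM in γ, 25.3 to 154 TPM in α′/β′ and 37.3 to 119 TPM in α/β, and its highest value was in α′/β′m replicate 1, where the ribosomal protein sum was low. Their part in the ribosomal protein sums was not tested. In α/βp replicate 2, 36 of the 84 genes had their highest level, and no other library held the highest level of more than 8.

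The agreement between replicates of these genes differed by subtype. Over the 84 genes, the correlation of log2(TPM + 1) between replicates was lowest in α/βp (0.499) and γd (0.526), then α′/β′m (0.714), γm+d (0.761), α/βc (0.804) and α/βs (0.820), and highest in α′/β′ap+m (0.944). Over all tested genes it was 0.746 to 0.956 and was the higher in each subtype. The median difference between replicates on the log2 scale was 0.302 to 2.45 for the members and 0.276 to 1.50 for all tested genes, with no test of the difference between them. More genes were higher in replicate 2 than in replicate 1 in every subtype but α/βs. The counts for replicates 2 and 1 were 72 and 7 in α/βp, 69 and 11 in α′/β′m and 67 and 13 in γm+d. They were 57 and 15 in γd, 56 and 26 in α/βc and 49 and 32 in α′/β′ap+m. In α/βs the balance was the other way, with 51 genes higher in replicate 1 and 29 in replicate 2. The median-ratio factors, which take in genes of all kinds, were also higher in replicate 2 than in replicate 1 in most subtypes. They were 1.32 and 0.746 in α/βp, 1.341 and 0.9545 in α′/β′m, 1.333 and 0.9025 in γm+d, 0.743 and 0.542 in γd and 1.323 and 1.14 in α/βc. In α/βs they were 1.034 and 1.164, and in α′/β′ap+m nearly equal, at 1.336 and 1.34. The direction was thus not particular to these genes, and its cause was not tested.

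The genes listed at 0 were not spread evenly. There were 41 in γd replicate 1, 14 in its partner, 31 and 5 in the pair of α/βp libraries and 3 to 8 in each of the other 10 libraries. Among tested genes, 45.6% of the 79 members and 38.8% of all 8646 genes were at 0 in γd replicate 1, and 32.9% and 30.5% in α/βp replicate 1. These shares were 11.4% and 21% in γd replicate 2 and 0% and 8.13% in α/βp replicate 2. To set the members against genes of like level, 4783 genes were taken. Their mean in the 10 libraries outside γd and α/βp lay between 10.8 and 258 TPM, and 76 of them were members. Of these, 44.7% of the members and 23.9% of all genes were listed at 0 in γd replicate 1, and 30.3% and 16.9% in α/βp replicate 1. In γd replicate 2 the shares were 9.21% and 7.65%, and in α/βp replicate 2 no member of that range was at 0, against 1.53% of all genes. Whether short transcripts, depth or the cells sampled set these shares was not tested.

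The 2 libraries with most zeros also differed from each other in which subunit they held. The sum of large subunit genes was 0.383 times that of small subunit genes in γd replicate 1 and 2.33 times in α/βp replicate 1. In the other 12 libraries the ratio was 0.759 to 1.39. In γd replicate 1, RpS27 alone made up 25.1% of the sum, and in α/βp replicate 1 RpL7 made up 20.3%. RpL7 was at 652 TPM there, against 2.26 to 135.5 TPM in the 13 other libraries, so this gene's mean of 91.01 TPM rests on 1 library.

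Within the 10 libraries outside γd and α/βp, members varied a little more than genes of the same range of means. The SD of log2(TPM + 1) had a median of 0.895 over 76 members and of 0.75 over all 4783 genes of that range. Among the steadiest were RpL14 (SD 0.38), RpL37A (0.48) and RpL12 (0.48). RpL14 stood at 20.0 to 47.8 TPM in those 10 libraries and RpL12 at 22.2 to 77.1 TPM. Among the most variable were RpL30 (SD 1.83), RpS23 (1.79) and RpL7 (1.71). RpL30, for which both α′/β′ap+m replicates were at 67.2 and 73.8 TPM, differed between replicates of other subtypes, at 2.74 and 41.8 TPM in γm+d, 1.46 and 23.4 TPM in α′/β′m and 4.19 and 42.6 TPM in α/βc.

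Between the 3 classes, RpL37a was called lower in γ than in α/β, and no other member was called. Calls were also a small share of all tested genes, at 2.82% to 4.89% per comparison. The classes were compared with limma on quantile-normalised log2(TPM + 1) over all 8646 tested genes, with Benjamini-Hochberg adjustment and a call at an adjusted p under 0.05 and at least 2-fold. Between γ and α′/β′, 0 of 79 members were called, where 2.82% of all tested genes were called, and 9 members (11.4%, against 14.7% of all tested genes) had an unadjusted p under 0.05. Between γ and α/β, 1 of 79 was called, where 3.1% of all tested genes were called, and 19 (24.1%, against 15.6%) had an unadjusted p under 0.05. Between α′/β′ and α/β, 0 of 79 were called, where 4.89% of all tested genes were called, and 4 (5.06%, against 14.4%) had an unadjusted p under 0.05. With limma's array weights, which give unlike libraries less weight, the counts were 7, 4 and 3, or 8.86%, 5.06% and 3.8% of members, where 14.7%, 5.99% and 16.3% of all tested genes were called. RpL37a was not among the 4 members called between γ and α/β with these weights.

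The member called was RpL37a, a zinc-binding protein of the large subunit on the X chromosome (chrX:15137870-15139367, minus strand, BDGP6). It stood at 0.99 and 0.75 TPM in γd, 12.2 and 30.6 TPM in γm+d, 105 and 178 TPM in α/βp, 28.6 and 83.6 TPM in α/βs and 50.2 and 43.8 TPM in α/βc. The γ libraries lay below the α/β libraries, at a log2 difference of -2.34 (adjusted p 0.0411 by limma, SE 0.61), with only γm+d replicate 2 inside the α/β range. In α′/β′ it was at 50.3, 38.2, 16.2 and 108 TPM, which overlapped both other classes. Without the γd and α/βp libraries the difference was -0.99 (adjusted p 0.469), and the adjusted p ranged over 0.0155 to 0.469 in 27 alternatives, of which 12 kept the call.

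The 79 members as a list lay below 0 in the comparisons with γ. The median log2 fold change of γ over α′/β′ was -0.79 for the members and -0.16 for all tested genes. Of the 79 members 63 were negative and 20.3% positive, against 41.9% positive of all tested genes. For γ over α/β the medians were -0.85 and -0.11, and again 63 of 79 were negative (20.3% positive, against 44.1%). For α′/β′ over α/β they were -0.20 and 0.07, and 50 of 79 were negative (36.7% positive, against 54%). The comparisons with γ share the γ libraries.

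Both γ medians rested largely on 1 library. Without γd replicate 1 the member medians were -0.21 against α′/β′ and -0.34 against α/β, and those of all tested genes -0.07 and -0.03. Without the 4 γd and α/βp libraries the member medians were -0.01 and -0.22, with 40 and 54 of 79 members negative. That for α′/β′ over α/β was -0.21, with 53 of 79 negative. For all tested genes these 3 medians were -0.04, -0.04 and 0.03, with 52.2%, 52.4% and 48.4% negative. In that fit of 10 libraries, 0, 0 and 1 members were called, where 4.4%, 4.45% and 8.16% of 8154 tested genes were called. In γ against α/β, photoreceptor markers lay below 0 in 6 of 6 cases, with a median of -1.10 and 1 called, and fat body markers in 4 of 4, with a median of -1.42 and 0 called (3 at an unadjusted p under 0.05, limma), while muscle markers were split at 2 and 2, with a median of -0.06. In γ against α′/β′, muscle markers lay above 0 in 4 of 4 cases (median 1.56, 0 called, 2 at an unadjusted p under 0.05), fat body markers in 3 of 4 (median 0.06, 0 called) and photoreceptor markers in 2 of 6 (median -0.60, 1 called lower). The 3 tested glial markers had medians of -0.05 against α′/β′ and -0.11 against α/β, with 0 called. Their part in the member medians was not tested.

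**Figure D4:**
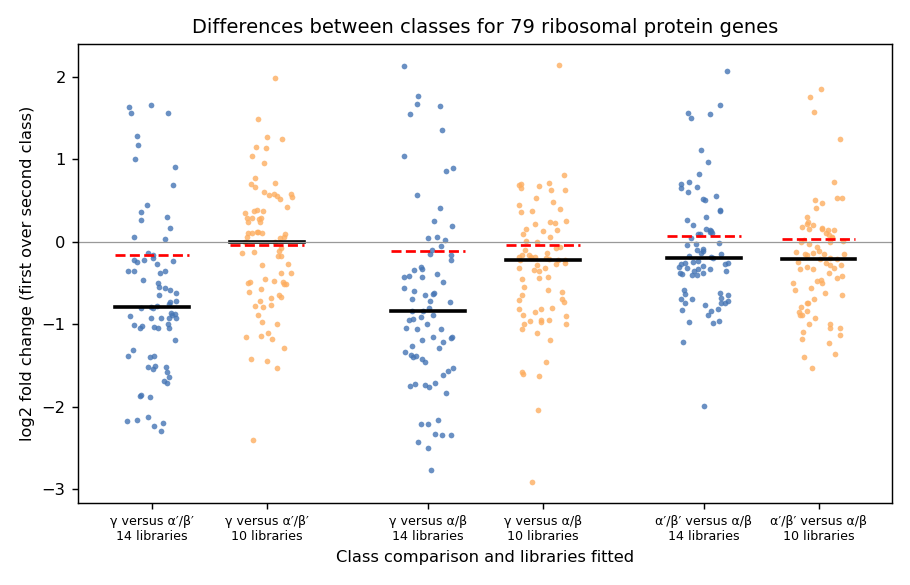
Fitted log2 fold change of the 79 tested genes in the 3 class comparisons, with 1 point per gene, blue for the fit to 14 libraries and orange for the fit to the 10 libraries outside γd and α/βp; black bars are the member medians and red dashed bars those of all tested genes. The γ medians lie at -0.79 and -0.85 with 14 libraries and at -0.01 and -0.22 with 10.

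The member called between α′/β′ and α/β in the 10 libraries was RpS21, a small subunit protein, which is named after its values were seen. It stood at 24.1 and 28.6 TPM in α′/β′ap+m, 17.7 and 53.4 TPM in α′/β′m, 6.48 and 4.22 TPM in α/βs and 9.60 and 7.21 TPM in α/βc. These values did not overlap, and the log2 fold change was 1.85 (SE 0.50, adjusted p 0.0286, limma). The α/βp libraries, outside that fit, were at 0 and 38.4 TPM and lay on either side of it.

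No gene of the other translation lists was called in the class comparisons, where 2.82%, 3.1% and 4.89% of all tested genes were called. Lists this short would hold few calls at those shares. An unadjusted p under 0.05 by limma was found for 14.7% of all tested genes against α′/β′ and 15.6% against α/β. The 7 tested cytosolic ribosomal protein genes that the name rule misses, among them RpLP0, RpLP1 and RpLP2 of the stalk, were all negative in γ against both other classes, with medians of -1.18 and -1.78, and 0 were called (2 and 5 at an unadjusted p under 0.05, limma). Of 8 elongation and termination factors, which carry tRNA and end the chain, the medians were -0.86 and -0.999, and 0 were called (3 and 4 at an unadjusted p under 0.05). For 35 initiation factors the medians were -0.56 and -0.35, with 0 called (6 and 3). For 61 mitochondrial ribosomal proteins, the parts of the separate ribosome of mitochondria, they were -0.29 and -0.01, with 0 called (3 and 3), and for α′/β′ over α/β 0.34. For 13 regulators of ribosomal protein genes and translation, such as Myc, Tor and larp, they were 0.10 and 0.03, with 0 called (1 and 0). RpL22-like, a paralogue known from the testis, and RpS28-like were listed at 0 in all 14 libraries.

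Between subtypes, the called members were mostly low in γd or low in α/βp, and RpS27 was high in γd. In all, 14 of 79 members (17.7%) were called in at least 1 of 21 pairs, where 24.3% of all tested genes were called. A limma F test across the 7 subtypes passed 3 members, RpL39, RpL35A and RpL23, or 3.8%, where 14.4% of all tested genes passed. The 14 genes gave 32 calls, of which 24 involved γd, 17 involved α/βp, 9 of these both, and 0 neither. Over all tested genes, 65.2% of 8020 calls involved γd or α/βp, which take part in 11 of the 21 pairs. Of the genes below, RpL23, RpL35A and RpS27 are named after their values were seen.

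RpL39, one of the shortest proteins of the ribosome, which lines the exit tunnel, was called in 6 pairs, all with α/βp. It stood at 42.0 and 340.2 TPM in γd, 17.6 and 35.3 TPM in γm+d, 44.5 and 24.3 TPM in α′/β′ap+m, 30.6 and 18.9 TPM in α′/β′m, 0 and 2.68 TPM in α/βp, 55.4 and 44.4 TPM in α/βs and 84.6 and 27.2 TPM in α/βc. Both α/βp libraries lay below all 12 others, and γd replicate 2 far above them. Its log2 fold change of γd over α/βp was 6.60 (adjusted p 0.00161, SE 0.93), and α/βp was called lower than every other subtype. The F test gave an adjusted p of 0.0100 (limma), which held in 21 of 25 alternatives, with a range of 0.00428 to 0.556.

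RpS27, a zinc-finger protein of the small subunit, was high in both γd libraries. It stood at 339.8 and 321 TPM in γd, whereas the other 12 libraries lay between 6.09 TPM, in α/βp replicate 1, and 127 TPM, in α/βp replicate 2. The γd values did not overlap with any other. Its log2 fold change was 2.69 over α′/β′m (SE 0.72, adjusted p 0.0416) and 3.11 over α/βp (SE 0.72, adjusted p 0.0257), and the other 4 pairs with γd were not called. Its mean was 106 TPM over 14 libraries and 69.6 TPM over the 10 libraries outside γd and α/βp.

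RpS12, a small subunit protein that the fly needs for cell competition, differed between α/βp and others. It stood at 63.2 and 54.7 TPM in γd, 41.4 and 74.8 TPM in γm+d, 68.3 and 93.0 TPM in α/βs and 0 and 24.1 TPM in α/βp. The lower values of α/βp overlapped only with those of α′/β′m, at 26.6 and 14.6 TPM. It was called in γd, γm+d and α/βs against α/βp, with log2 fold changes of 4.40, 3.86 and 4.31.

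**Figure D5:**
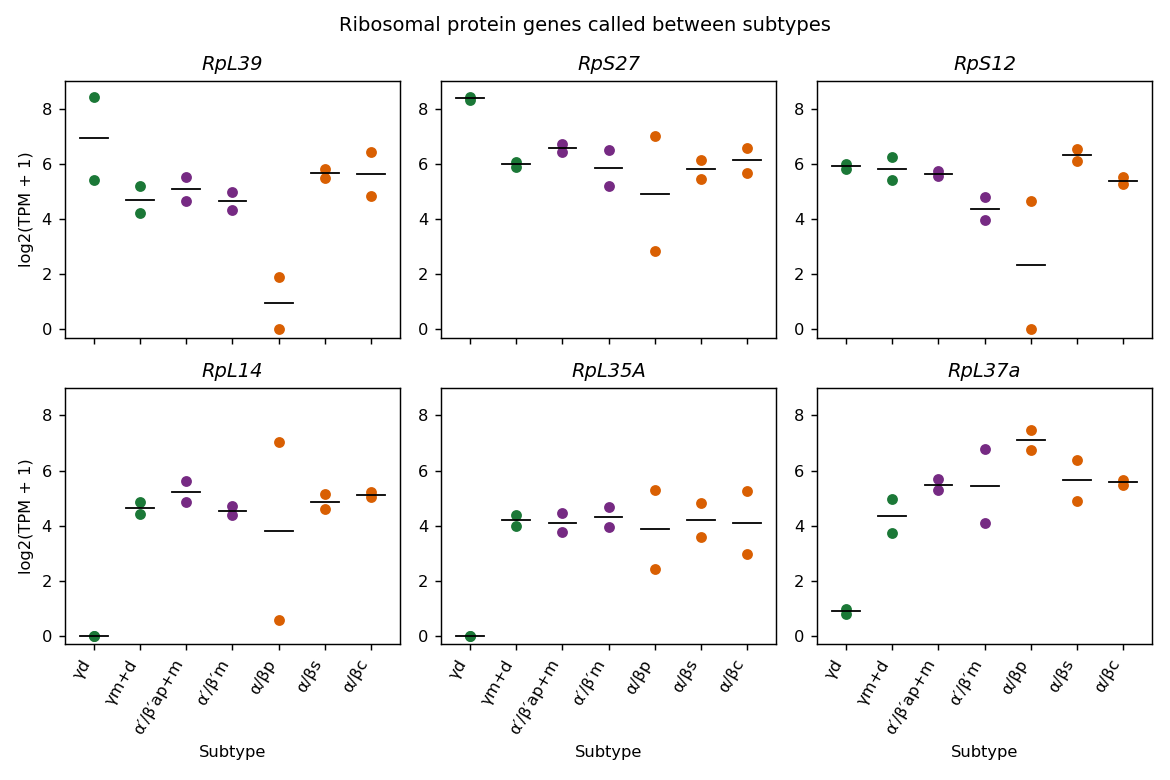
Levels of 6 genes called between subtypes, as log2(TPM + 1), with 1 point per library, a bar at the mean of the 2 replicates and colour by class (green γ, purple α′/β′, orange α/β). RpL39 is lowest in α/βp (0 and 2.68 TPM), RpS27 highest in γd (339.8 and 321 TPM), and RpL14 and RpL35A are listed at 0 in both γd libraries.

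More members were low in γd. RpL14 and RpL35A, of the large subunit, were listed at 0 in both γd libraries. RpL14 stood at 20.0 to 47.8 TPM in the 10 libraries outside γd and α/βp and at 0.50 and 131 TPM in α/βp, and its γd level was called lower than that of every subtype but γm+d, by log2 fold changes of -4.08 to -4.65. RpL35A stood at 4.46 to 38.6 TPM in the 12 other libraries and was called in the same 5 pairs, by -3.26 to -4.08. Its F test had an adjusted p of 0.0431 (limma), which 7 of 25 alternatives kept below the threshold.

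RpL23, at 0 and 0.40 TPM in γd, stood at 17.4 to 66.5 TPM in the 10 libraries and at 0 and 19.4 TPM in α/βp. It was called once, in γd against α′/β′ap+m, by a log2 fold change of -4.09. Its F test had an adjusted p of 0.0441 (limma), which 9 of 25 alternatives kept below the threshold. RpL27, at 0 and 8.72 TPM in γd, reached 20.5 TPM or more in every other library and was called against α′/β′ap+m (-3.61) and α/βp (-4.41). RpL41 was called against α′/β′ap+m (-3.12): its γd values, 53.0 and 1.79 TPM, lay below those of the 12 other libraries, which were 69.6 to 322 TPM.

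RpS14a and RpS14b were both listed at 0 in both γd libraries, the only libraries in which either was at 0. RpS14a was called in γd against α′/β′m (-3.76) and α/βp (-4.84), and RpS14b against α′/β′ap+m (-4.31). RpL18, at 0 in both γd libraries and in α/βp replicate 1, was called in γd against α/βs (-4.90). RpL37a was called in γd against α/βp (-4.10). RpS28b was called between α′/β′m, at 70.7 and 40.4 TPM, and α/βp, at 0 and 5.80 TPM (4.497). Among the called genes named here, a pair call was kept in 24 of 25 alternatives for RpL27 and in 23 for RpL14, RpL39 and RpS12. It was kept in 22 for RpL35A, RpL37a and RpS14a, 19 for RpS27, 18 for RpS28b and 17 for RpL23. For RpS14b, RpL18 and RpL41 it was kept in only 11, 10 and 9, so most alternatives dropped these calls.

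For genes called low in γd, a value of 0 in γd replicate 1 was shared by 36 of the 79 tested members and cannot be set apart from that library's 38.8% of tested genes at 0. In γd replicate 2, 9 of the 79 tested members were at 0 (11.4%, against 21% of all tested genes). There RpL14, RpL18, RpL35A, RpS14a and RpS14b were at 0 and RpL23 and RpL37a under 1 TPM, while RpL10, RpL5, RpS3 and RpS27 stood at 163 TPM or more. Without γd replicate 2 the number of members called in a pair was 37 (46.8%, where 41.2% of all tested genes were called), without α/βp replicate 1 it was 24 (30.4%, where it was 29.7%), without α/βp replicate 2 it was 33 (41.8%, where it was 38.2%), without any 1 α′/β′ap+m or α/βc library it was 9, and without any 1 of the other libraries it was 10 to 14. A lone library is then assumed to vary like the others. Fat body and photoreceptor markers differed between the α/βp replicates, at 1584 and 5904 TPM and at 2024 and 4000.3 TPM, and their part in the α/βp calls was not tested.

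Among the 5 subtypes left without γd and α/βp, 5 of 79 members were called in at least 1 of 10 pairs, where 21.5% of 8154 tested genes were called. RpS4 and RpS30 among them are named after their values were seen. RpS4, of the small subunit, stood at 50.4 and 61.1 TPM in α/βs, above the 10.6 to 27.5 TPM of the other 8 libraries. The γm+d level was called lower than that of α/βs (log2 fold change -1.75, adjusted p 0.0315), as were the levels of α′/β′ap+m (-1.84, adjusted p 0.0147) and of α′/β′m (-1.90, adjusted p 0.0138), each with an SE of 0.39 by limma. In the libraries outside that fit, RpS4 was at 0 in γd replicate 1 and α/βp replicate 1 and at 51.8 and 46.2 TPM in their partners.

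RpL18 was called lower in α′/β′m, at 0.35 and 9.43 TPM, than in γm+d, at 21.25 and 19.95 TPM, and than in α/βs, at 45.05 and 25.5 TPM. RpS12 was called lower in α′/β′m than in α/βs (-2.10). RpS30, made as a fusion to a ubiquitin-like protein, was called lower in α′/β′m, at 11.4 and 31.99 TPM, than in α/βc, at 48.8 and 80.2 TPM (-1.57). In each of these pairs the values of the 2 subtypes did not overlap.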

How the data were processed

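The authors assigned reads to transcripts of the BDGP6 assembly with kallisto, whose version is not given in the sources used here, took out ribosomal RNA, reporter and spike-in entries, and deposited TPM for 30484 transcripts and 13931 genes in 14 libraries. TPM keep no depth, so no count test, interval or detection limit was computed. The authors' subtype and class means were not used, and 0 sample columns were left out. Libraries were grouped by the cell type in their labels.

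The 84 members and the gene lists were chosen with earlier results of these data known. TPM were quantile-normalised as log2(TPM + 1), and the 8646 genes that reached 10 TPM in 1 or more libraries were tested with limma 3.58.1 in R 4.3.3 (1 mean per class or subtype, shared variance with a trend). P-values are two-sided, with Benjamini-Hochberg adjustment over all tested genes of each comparison. The steps were tested on simulated data. Tables and figures were made in Python 3.11.15 with pandas 2.3.3, numpy 2.4.6 and matplotlib 3.10.9, and positions come from the Ensembl annotation of BDGP6, which holds 83 of the 84 members.

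Members are named if they are among the 6 with the highest or lowest mean or at 0 in most libraries, the largest called differences, the 4 with the largest or smallest SD over the 10 libraries outside γd and α/βp, the paired copies, or RpS27A, RpL40, RpS6, RpL5, RpL11, RpL22, RpL41 and RpL39. RpL3, RpL23A and RpS3A were named after their values or annotation were seen, other members outside that rule are marked where they appear, and 3 members are counted but not reported by name here. The alternatives were pseudocounts of 0.1 and 5, no or median-ratio scaling, other filters, no trend, array weights, a replicate block, 1 value per subtype, class contrasts from the subtype model and libraries left out. Leaving out the 3 libraries with over 40% of all genes at 0 was chosen after seeing the data.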

Additional observations from a re-analysis of the deposited data

Results flagged for a closer look

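In the 118 sets of class values examined (4 or 6 libraries each), 22 had 1 library far from the rest of its class by Dixon's test, or 18.6%. The test assumes normal values, whereas TPM were used, and a set with 1 value above 0 is always flagged. Some genes were also named for extreme values, so this share is not set against a chance rate. α/βp replicate 1 and replicate 2 were that library 4 times each and γm+d replicate 2 was 3 times.

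In α/βp replicate 1, 31 members were listed at 0, against 3 to 8 in the other α/β libraries, and the ratio of large to small subunit sums was 2.33, against 0.959 to 1.27. In γd replicate 1 that ratio was 0.383, against 1.25 to 1.39 in the other γ libraries. In α/βp replicate 1, RpL7 stood at 652 TPM, against 40.1 to 135.5 TPM, and RpS14a at 79.8 TPM, against 5.71 to 17.9 TPM.

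In α/βp replicate 2, RpL12 stood at 119 TPM, RpL14 at 131 TPM, RpL27 at 141 TPM and RpS6 at 120.3 TPM, where the other α/β libraries reached at most 34.8, 36.8, 65.2 and 43.7 TPM. In γm+d replicate 2, RpL7 stood at 50.8 TPM and RpS10b at 124 TPM, where the other γ libraries reached at most 3.41 and 36.5 TPM. RpL39 in γd replicate 2 stood at 340.2 TPM, against 17.6 to 42.0 TPM in the other γ libraries. RpL15 in α′/β′m replicate 1 was low, at 168 TPM against 286 to 300.4 TPM, and RpS14a in α′/β′m replicate 2 was high, at 27.5 TPM against 12.1 to 12.7 TPM.

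The rest were genes of paired copies with a mean under 10 TPM. All were the minor copy of their pair except RpL34a, which had the higher mean of its pair. RpL10Aa stood at 6.23 TPM in γm+d replicate 1 and 11.9 TPM in α/βc replicate 1, where others of the class reached at most 0.50 and 0.74 TPM. RpS15Ab stood at 2.25 TPM in γm+d replicate 2 and 2.47 TPM in α/βc replicate 1, and RpL34a at 16.4 TPM in α/βc replicate 2. RpL37b at 6.21 TPM in α′/β′m replicate 1, RpS19b at 0.66 TPM in α′/β′ap+m replicate 1 and RpS28a at 1.45 TPM in α/βc replicate 2 were the only values above 0 of those genes.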

How the results depend on the processing

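For γ against α/β, where 1 member was called, 2 were called with a pseudocount of 5, with the replicate block and with class contrasts from the subtype model, 4 with no normalization beyond TPM and with array weights, 3 with median-ratio scaling, and 0 with no filter, with no variance trend, with 1 value per subtype, without the 4 γd and α/βp libraries and without the 3 libraries with most genes at 0. In that comparison, the share of all tested genes called was 5.85% from the subtype model, 5.99% with array weights, 0.921% with 1 value per subtype and 1.75% to 4.45% under the others. With array weights 7 members (8.86%, and 14.7% of all tested genes) were called for γ against α′/β′. For α′/β′ against α/β 3 (3.8%, and 16.3%) were called, where both counts had been 0. In subtype pairs 8 (10.1%, and 30.9%) were called, where it was 14 (17.7%, and 24.3%). Without the 4 γd and α/βp libraries 1 (1.27%, and 8.16%) was called for α′/β′ against α/β and 5 (6.33%, and 21.5%) in subtype pairs. With no normalization 25 members (31.6%, and 31.2% of all tested genes) were called in subtype pairs and 5 (6.33%, and 11.6%) passed the F test, where it was 3. With no filter 1 (1.19%, and 8.65%) passed. When each library was left out in turn, 0 to 3 members were called for γ against α/β, 9 to 37 in subtype pairs, 1 to 18 past the F test, and 0 in the other class comparisons. The F test passed 18 members (22.8%, and 22.1% of all tested genes) without α/βp replicate 2, 15 (19%, and 24.2%) without γd replicate 2, 7 (8.86%, and 16.3%) without α/βp replicate 1 and 1 without any 1 library of γm+d, α′/β′ap+m or α/βs. Under 1 TPM instead of at 0 there were 6.5 members per α′/β′ library, where there were 4.75 at 0. The cause of these moves was not tested.

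With no normalization the median of all tested genes moved to -0.88, -0.60 and 0.28 in the 3 class comparisons, and with median-ratio scaling to -0.50, -0.34 and 0.15. Relative to these, the member medians stayed lower, at -1.54, -1.40 and 0.08, and at -1.09, -1.15 and -0.04. Over all tested genes, the counts of class calls were 244, 268 and 423, and were 1275, 518 and 1412 with array weights, 57, 70 and 164 with 1 value per subtype, and 562, 506 and 692 from the subtype model. Same-numbered deviations of 21 pairs of subtypes had correlations of -0.0585 to 0.208, with 3 over 0.1. The main fits left the replicate number out. These correlations do not test an effect of replicate number on the members, of which more were higher in replicate 2 in every subtype but α/βs. With the replicate block the members called between γ and α/β were RpL37a and RpL3. In subtype pairs 18 members were then called (22.8%, where 25.9% of all tested genes were called). Since the TPM used here keep no depth, a level at or near 0 could not be given a limit. The paper lists read numbers per library in its supplement, which was not used here.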

Other observations

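Of 16 tested ribosome biogenesis genes, which process ribosomal RNA and assemble the subunits in the nucleolus, the median log2 fold change was -0.37 for γ over α′/β′, -0.23 for γ over α/β and 0.36 for α′/β′ over α/β. None was called in these comparisons by limma, where 2.82%, 3.1% and 4.89% of all tested genes were called. An unadjusted p under 0.05 was found for 5, 2 and 1 of the 16, and for 14.7%, 15.6% and 14.4% of all tested genes. The ubiquitin genes Ubi-p5E and Ubi-p63E, other sources of ubiquitin beside RpS27A and RpL40, stood at 21.3 ± 14.3 and 27.2 ± 23.5 TPM (SD, n = 14), below both fusions, and 0 of the 2 were called, with 1 at an unadjusted p under 0.05 in each comparison with γ. Among the 61 tested mitochondrial ribosomal protein genes, mRpL42 stood at 4485 TPM in γd replicate 1, which is most of that list's sum of 5119 TPM in that library, and it was listed at 0 in 3 other libraries. mRpL42 is named after its values were seen.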
